A study of Mus musculus with 7 samples.

Results

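Cluster 9_alpha was the smaller of the 2 clusters that the authors named alpha among single cells of mouse pancreatic islets. It was taken as every cell with that name in the authors' table of gene-level clusters. It held 159 of 5907 cells, and it was set against cluster 1_alpha, with 1041 cells, within each library. Islets came from female C57BL/6 mice aged 10 weeks and were dissociated with Accutase. The cells went through a droplet 5' assay with a modified protocol, insulin cDNA was removed with a Cas9-based panel, and whole cDNA was read on a Nanopore sequencer. In the modified protocol, dNTP was added at 2 steps, an extension of 45 min was lengthened to 2 h and another of 1 min to 3 min. No treatment or genotype was compared, and both clusters share all of these conditions. Of 7 samples in 4 groups, the cell tables covered 2, called replicates 1 and 2, and nothing in the labels says that they came from separate animals.

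Alpha cells secrete glucagon, which makes the liver release glucose when blood glucose is low. Proglucagon is encoded by Gcg and cut to glucagon by the convertase Pcsk2. Transthyretin, encoded by Ttr, is an abundant alpha cell transcript, and the homeobox genes Irx1 and Irx2 mark alpha cells in mouse islets. Alpha cells and the cells that make pancreatic polypeptide (PP cells) share an origin, and Ppy and Pyy transcripts are known to occur in alpha cells as well.

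The whole libraries held 11012364 UMIs over 4814 cells in replicate 1 and 12092393 UMIs over 1093 cells in replicate 2. A UMI (unique molecular identifier) counts 1 captured molecule. Median depth was 2110 UMIs per cell in replicate 1 and 9949 in replicate 2, so every ratio below was taken within a library. The libraries shared 5 cell barcodes, and none of them belonged to a cluster 9 cell.

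Cluster 9 cells carried the alpha program. Gcg was the most abundant of 8 hormone transcripts in 106 of 106 cluster 9 cells of replicate 1 and in 51 of 53 of replicate 2, against 835 of 855 and 182 of 186 cluster 1 cells. The 2 exceptions in cluster 9 were led by Pyy and by Iapp, which encodes islet amyloid polypeptide. Gcg and Ttr each gave at least 1 UMI in 100% of cluster 9 cells of both libraries. Stellate, endothelial and macrophage cells also gave a UMI of Gcg in 53.7% and 86.4% of cells, and of Ttr in 11.65% and 52.3%. Detection of 1 UMI of these 2 genes is thus weak evidence of an alpha cell.

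Irx1 gave a UMI in 13.2% and 49.1% of cluster 9 cells of replicates 1 and 2, against 9.24% and 40.9% of cluster 1 cells. Irx2 gave a UMI in 22.6% and 66.0% of cluster 9 cells, against 13.9% and 41.9% of cluster 1 cells. In stellate, endothelial and macrophage cells, which should lack these factors, Irx1 had 0 UMIs in 309 and 44 cells, and Irx2 had 1 UMI in each library. Those cells were shallower, with medians of 1035 and 4097.5 UMIs. When each cell was thinned to 1000 UMIs, Irx1 shares were 2.83% and 7.55% in cluster 9 and 5.15% and 7.53% in cluster 1. Irx2 shares after thinning were 8.49% and 5.66% in cluster 9 and 7.66% and 3.76% in cluster 1. The thinned Irx1 shares gave no common order of the clusters, while the thinned Irx2 share was higher in cluster 9 in both libraries. These shares rest on few cells, and the markers fit the authors' name for both clusters.

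Among the 15 clusters with at least 10 cells in each library, cluster 9 ranked second for Gcg, Ttr and Irx1 in both libraries, behind cluster 1. For Irx2 it ranked second in replicate 1 and first in replicate 2. No other cluster came between the alpha clusters for any of these genes.

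Cluster 9 made up 2.20% of all cells in replicate 1 and 4.85% in replicate 2. Of the alpha cells it was 106 of 961 in replicate 1, or 11.03% with an exact Clopper-Pearson 95% interval of 9.12% to 13.2%. In replicate 2 it was 53 of 239, or 22.2% with an interval of 17.07% to 27.98%. These intervals do not overlap, but they cover counting error only. The mean over the libraries was 16.6% ± 7.88 (SD, n = 2), so the spread between libraries was large against the mean.

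Cluster 9 cells were deeper than cluster 1 cells in both libraries. In replicate 1 they held 1592 to 5412 UMIs with a median of 3010.5, against 633 to 4680 with a median of 1855 in cluster 1. In replicate 2 they held 5553 to 23961 UMIs with a median of 11765, against 2946 to 18817 with a median of 8633. The ratio of medians was 1.62 in replicate 1 and 1.36 in replicate 2, while the ranges overlapped broadly. The median number of genes per cell was 1248.5 against 747 in replicate 1, and 3523 against 2651.5 in replicate 2.

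Cells of cluster 9 were concentrated at the deep end of the alpha cells. When the alpha cells of each library were ordered by UMIs and split into 5 equal parts, the deepest part held 80 of 106 cluster 9 cells (75.5%) in replicate 1 and 26 of 53 (49.1%) in replicate 2. In that part cluster 9 was 41.7% of alpha cells in replicate 1 and 54.2% in replicate 2. The shallowest part held 0 of 106 cluster 9 cells in replicate 1 and 4 of 53 in replicate 2. A difference in genes per cell was also present at equal depth. After random thinning of each cell to 1000 UMIs, without 59 shallower cluster 1 cells of replicate 1, the median was 498 genes in cluster 9 against 442.5 in cluster 1 in replicate 1, and 544 against 496 in replicate 2. Gcg alone took a median of 25.9% of the UMIs of a cell in cluster 9 against 33.0% in cluster 1 in replicate 1. In replicate 2 it took 16.0% against 18.1%. The part of such abundant transcripts in the difference in genes per cell was not tested.

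**Figure D1:**
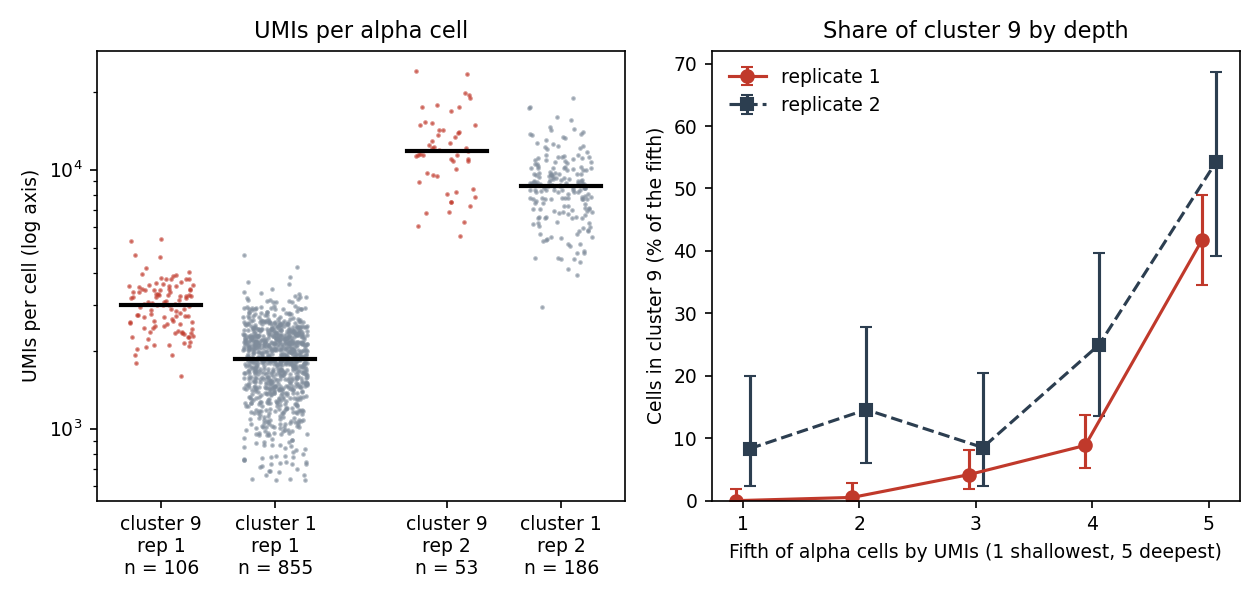
Left, UMIs per cell on a log axis for cluster 9 and cluster 1 in each library, with 1 point per cell and a bar at the median (3010.5 against 1855 and 11765 against 8633). Right, the share of alpha cells in cluster 9 in each of 5 equal parts by depth, with exact 95% binomial intervals, which is highest in the deepest part in both libraries (41.7% and 54.2%).

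Other measures of cell quality showed little difference. Mitochondrial transcripts made up 0.836% of the UMIs of cluster 9 against 0.861% in cluster 1 in replicate 1, and 1.51% against 1.69% in replicate 2. Scrublet, which scores a cell by its likeness to simulated mixtures of 2 cells, placed 1 of 106 cluster 9 cells among the top scores of replicate 1, against 18 of 855 cluster 1 cells. In replicate 2 it placed 0 of 53 cluster 9 cells there, against 7 of 186 cluster 1 cells. Such a score cannot see a mixture of 2 alpha cells, and the part of depth in the formation of cluster 9 was not tested.

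The authors also deposited clusters made from transcript counts and clusters made within each library, and cluster 9 was not a cluster of its own in most of them. The merged transcript clusters put 103 of 106 and 51 of 53 cluster 9 cells into transcript cluster 2_alpha, which also took 541 of 855 and 120 of 186 cluster 1 cells. The other transcript cluster named alpha, 5_alpha, held 286 and 60 cluster 1 cells but only 1 and 0 cluster 9 cells. In the gene clusters of replicate 1 alone, 103 of 106 cluster 9 cells joined 556 cluster 1 cells. In those of replicate 2 alone, 52 of 53 joined 179 of 186.

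The transcript clusters of replicate 2 alone were the exception. There 45 of 53 cluster 9 cells (84.9%) fell into an alpha cluster that took only 11 of 186 cluster 1 cells (5.91%), and 7 of 53 joined the cluster that held 171 of 186 cluster 1 cells. In the transcript clusters of replicate 1 alone, 105 of 106 cluster 9 cells shared a cluster with 564 of 855 cluster 1 cells. A separation close to cluster 9 was thus present in the transcript clusters of replicate 2 alone and in none of the other 4 clusterings compared here. These clusterings use the same cells and reads, so they are not independent of each other.

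**Figure D2:**
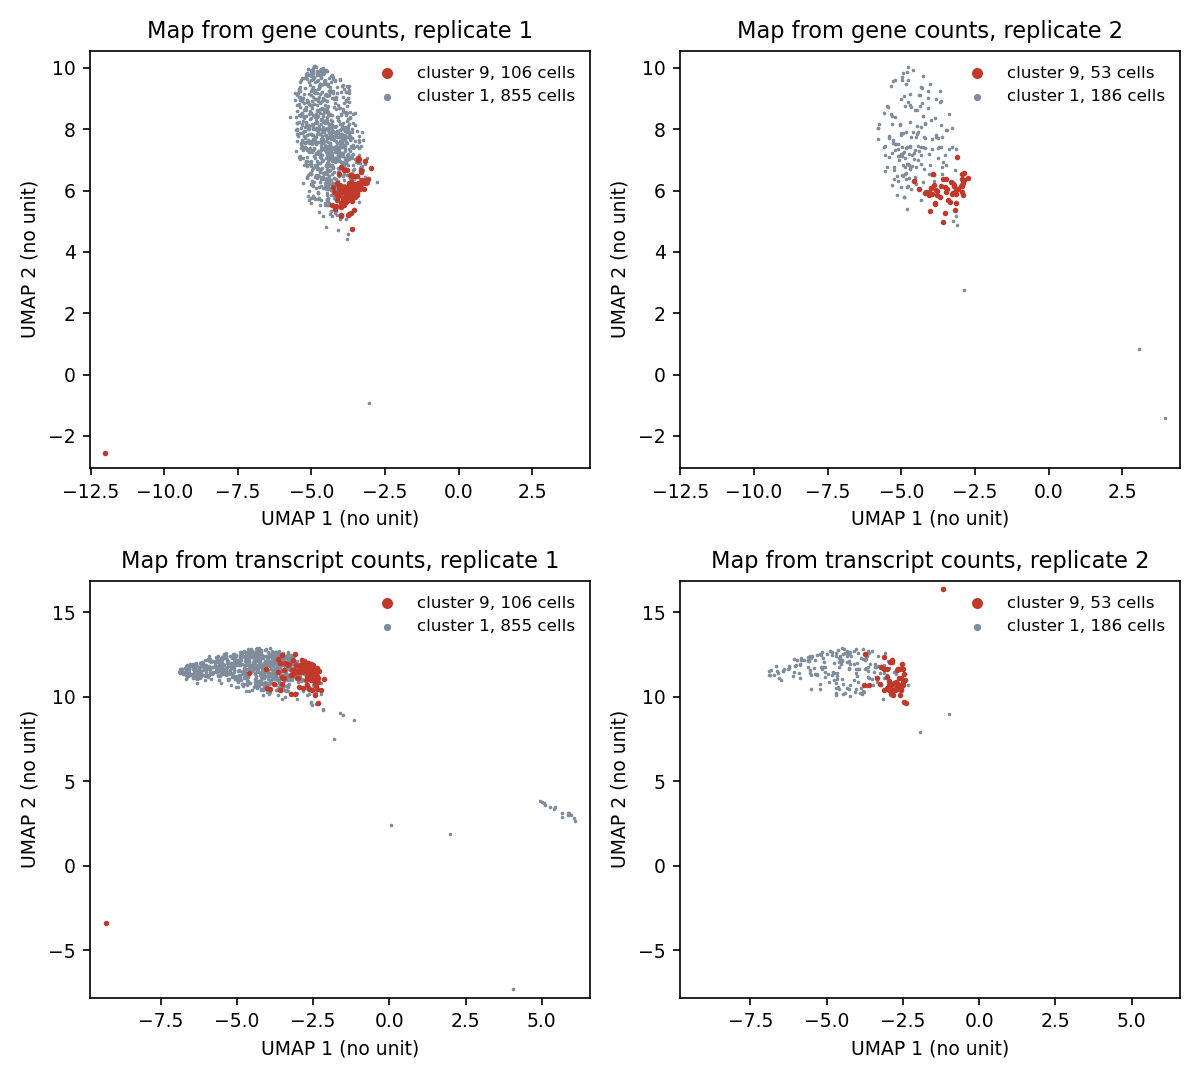
The authors' 2-dimensional maps (UMAP, axes without unit) of alpha cells only, from gene counts above and transcript counts below, with replicate 1 left and replicate 2 right. Red points are cluster 9 (106 and 53 cells) and grey points cluster 1 (855 and 186 cells), and cluster 9 sits at 1 edge of the alpha cells in each map, with 1 cluster 9 cell far from the rest in all but the gene map of replicate 2.

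Gene levels were compared as UMI sums per cluster and library, scaled by TMM and given as CPM. The clusters were made from these same gene counts, so the ratios are a description and carry no test. Of 7984 genes with at least 20 UMIs over both clusters in each library, 3 (0.0376%) were at least 2-fold higher in cluster 9 in both libraries and 25 (0.313%) at least 2-fold lower. Scaling to total UMIs turned that split to 19 higher and 9 lower, DESeq2 size factors to 5 and 22, and total UMIs without Gcg to 9 and 15. Each ratio has a small count added to both sums (the pseudocount). Raising it to 3 UMIs turned the TMM split to 11 higher and 2 lower. With no filter on UMIs the split was 1180 higher and 233 lower of 18267 genes. The direction of the split thus depends on the scaling, the pseudocount and the filter. In replicate 1 taken alone 560 genes (7.01%) were past 2-fold, with 121 higher (1.52%) and 439 lower (5.5%). In replicate 2 taken alone 298 (3.73%) were past it, with 92 higher (1.15%) and 206 lower (2.58%), and 9 genes (0.113%) were past it in opposite directions in the 2 libraries. The 28 genes past 2-fold in both libraries (0.351%) were mostly thinly counted, since 26 of them had under 10 UMIs in cluster 9 of at least 1 library.

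The 3 genes on the high side, named here after their values were seen, were Chmp6, Bnip1 and Cbll1. Chmp6 encodes an ESCRT-III subunit and had 9 and 21 UMIs in cluster 9 of replicates 1 and 2, against 17 and 23 in cluster 1. Bnip1 encodes an endoplasmic reticulum SNARE and had 8 and 14 UMIs, against 16 and 16. Cbll1 encodes a ubiquitin ligase of the RNA methylation machinery and had 12 and 21 UMIs, against 25 and 24. At these counts a few molecules decide whether a gene passes 2-fold.

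For scale, cluster 9 was set in the same way against each other cluster. The share of genes past 2-fold was 0.351% against cluster 1, 1.45% against 12_delta and 4.49% against 6_ppy. It was 7.43%, 7.58%, 10.1% and 21.2% against 8_delta, 3_delta, 14_delta and 7_delta, and 8.16%, 10.7%, 11.3% and 12.2% against 5_beta, 2_beta, 0_beta and 4_beta. Against 10_quiescent_stellate, 15_endothelial and 11_endothelial it was 20.4%, 25.3% and 29.7%. Cluster 12_delta, whose cells had medians of 4013 and 17035 UMIs, carried 149200 and 107800 CPM of Gcg beside its delta cell name. Cluster 1 was the nearest of the 14 clusters by this count, although smaller sums left fewer genes to compare in the others.

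The well-counted genes differed little. Of 2074 genes with at least 100 UMIs in each library, 94.4% in replicate 1 and 96.4% in replicate 2 lay within 1.5-fold. Past 2-fold in both libraries were 0 genes on the high side and 1, Ins2, on the low side (0.0482%). In both libraries 3 genes (0.145%) were at least 1.5-fold higher in cluster 9 and 8 (0.386%) at least 1.5-fold lower, while 3 (0.145%) were past 1.5-fold in opposite directions. The log2 ratios of the libraries correlated across genes with r = 0.0709 over all 7984 genes, 0.187 over the 2074 genes and 0.741 over 100 genes with at least 1000 UMIs in each library. Genes are not independent replicates, and each library's ratios carry its own counting error.

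**Figure D3:**
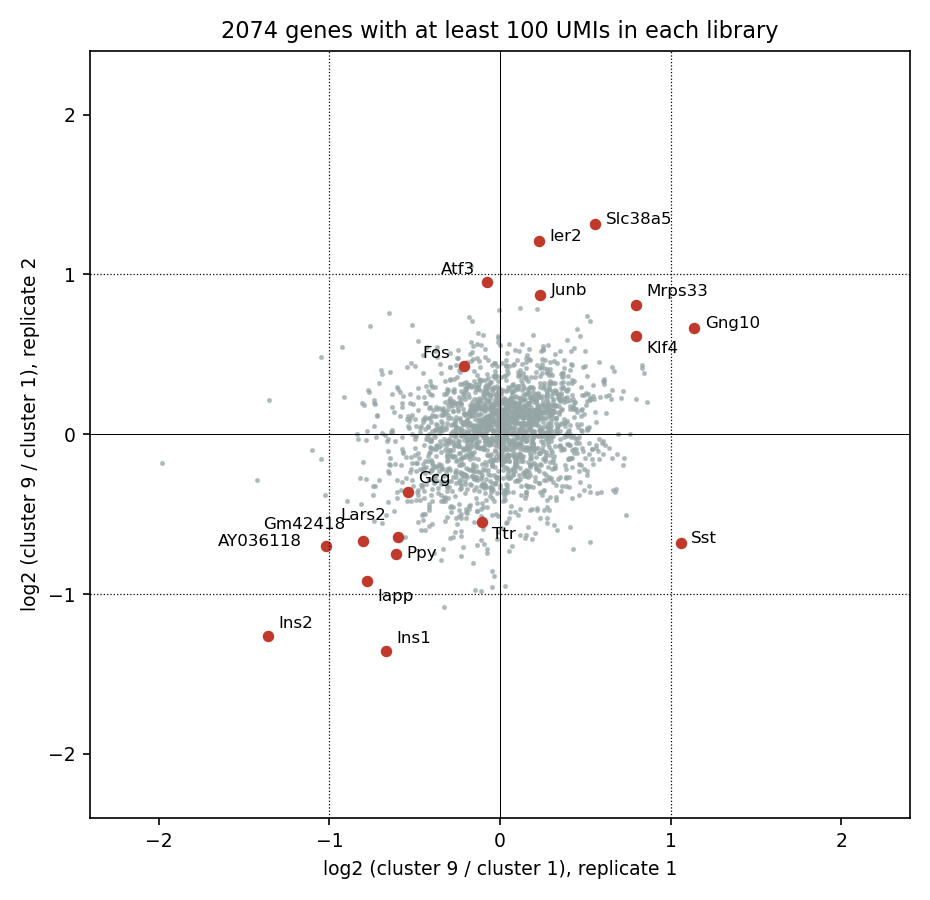
Log2 ratio of cluster 9 to cluster 1 in replicate 1 (horizontal) and replicate 2 (vertical) for the 2074 genes with at least 100 UMIs in each library, 1 point per gene, with dotted lines at 2-fold. Most points form a round cloud at 0, Ins2 is the only gene past 2-fold in both libraries, and Ier2, Atf3 and Junb are high in replicate 2 with values between -0.08 and 0.24 in replicate 1.

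Among the alpha markers, the share of glucagon transcript was lower in cluster 9. Gcg lies at chr2:62474530-62483650 on the minus strand (mm10). It made up 5.15% to 38.0% of the UMIs of a cluster 9 cell in replicate 1, with a median of 25.9%, against 0 to 49.1% with a median of 33.0% in cluster 1. In replicate 2 it made up 0.723% to 21.4% with a median of 16.0% in cluster 9, against 0.0255% to 29.1% with a median of 18.1% in cluster 1. The cell ranges overlapped almost fully. In the sums Gcg stood at 295800 and 183400 CPM in cluster 9, against 430400 and 235400 CPM in cluster 1, for log2 ratios of -0.54 and -0.36.

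The gap in Gcg was smaller between cells of like depth. For this, cells of both clusters were limited to the middle part (25th to 75th percentile) of cluster 9 depth in their library. The choice was made after seeing the data and left 52 and 27 cluster 9 cells and 101 and 56 cluster 1 cells. Cluster 9 stayed deeper among these cells, with median UMIs of 3010.5 against 2697 in replicate 1 and 11765 against 10748 in replicate 2. The log2 ratios of Gcg were then -0.22 and -0.26. Ttr, the carrier of thyroid hormone and retinol-binding protein, had 48220 and 56130 CPM in cluster 9 against 51880 and 82080 CPM in cluster 1, or -0.11 and -0.55 on the log2 scale. Over all cells the gap in Ttr lay mainly in replicate 2, while between cells of like depth the ratios were -0.32 and -0.55.

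None of the 17 genes of a wider alpha list that could be compared was past 2-fold in both libraries, against 0.351% of all genes. Of the 17, 3 were higher and 9 lower in cluster 9 in both libraries, beside 26.9% and 26.8% of all genes. The median log2 ratios of the 17 were -0.12 and -0.20, beside -0.02 and 0.01 over all genes. Scaling to total UMIs moved the median of all genes to 0.20 and 0.14 and turned that count to 7 higher and 3 lower, so the direction of the alpha list depends on the scaling. Pcsk2 had 5849 and 5098 CPM in cluster 9 against 6587 and 5386 CPM in cluster 1, for log2 ratios of -0.17 and -0.08 that turned positive when scaled to total UMIs.

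Edn3, which encodes endothelin 3, and the amino acid transporter gene Slc38a5 were the highest of the 17 alpha genes by the smaller of their 2 log2 ratios. Edn3 had 242 and 224 CPM in cluster 9 against 173 and 156 CPM in cluster 1, for log2 ratios of 0.50 and 0.52, but 0.44 and 0.08 between cells of like depth. Slc38a5 had 147 and 417 CPM against 101 and 168 CPM, with log2 ratios of 0.56 and 1.31. A single cell held 97 of the 218 Slc38a5 UMIs of cluster 9 in replicate 2. The share of cells with an Slc38a5 UMI was 17.9% and 47.2% in cluster 9 and 10.9% and 46.2% in cluster 1.

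Transcripts of beta cell and PP cell hormones were lower in the sums of cluster 9. Ins2, at chr7:142678656-142743381 on the minus strand (mm10), was the only gene named by the rule of at least 50 CPM and 2-fold in both libraries. It had 29 UMIs in cluster 9 against 323 in cluster 1 in replicate 1, and 118 against 655 in replicate 2, for log2 ratios of -1.36 and -1.26. The other insulin gene, Ins1, had 23 against 159 UMIs and 47 against 280 UMIs, or -0.67 and -1.36. Iapp had 533 against 3909 UMIs and 2884 against 12530 UMIs, or -0.78 and -0.92. Ppy had 3021 against 19730 UMIs and 5542 against 21441 UMIs, or -0.61 and -0.75. Between cells of like depth the gaps were wider for Ppy (-2.19 and -1.17), Iapp (-1.97 and -1.175) and Pyy (-1.21 and -1.002), the last at -0.08 and -0.41 over all cells. Ins2 had -2.79 and -0.94 between cells of like depth, so it was not past 2-fold in replicate 2 there, and Ins1 had -1.35 and -1.34.

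Cells at the middle of each cluster did not show all of these gaps. Median Iapp was 0.0803% of the UMIs of a cell in cluster 9 against 0.0687% in cluster 1 in replicate 1, the reverse of the order of the sums, and 0.189% against 0.336% in replicate 2. Median Ppy was 0.0860% against 0.0580%, and 0.0657% against 0.0631%, again higher in cluster 9 than in cluster 1. The highest cell reached 9.44% and 7.14% Ppy in cluster 9, against 28.6% and 25.4% in cluster 1. Without the cells with the highest Scrublet scores, 1 cell of cluster 9 and 25 of cluster 1, the log2 ratios became -1.09 and -0.39 for Ins2, -0.22 and -0.59 for Ins1, and -0.33 and -0.19 for Iapp. Ins2 was then no longer past 2-fold in replicate 2, where cluster 1 held 323 Ins2 UMIs without those 7 cells and 655 with them.

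Free RNA in the droplets was not measured, so Ins2 in the alpha clusters was set beside cells that should not make insulin. After thinning to 1000 UMIs, Ins2 gave a UMI in 9.43% and 9.43% of cluster 9 cells, 14.1% and 20.97% of cluster 1 cells, and 27.5% and 25.0% of stellate, endothelial and macrophage cells. Without thinning the shares were 20.8% and 69.8% in cluster 9, 24.4% and 76.3% in cluster 1, and 31.1% and 70.5% in those cells. The thinned shares of both alpha clusters lay below the shares in those cells and are not read as expression. Single cells held up to 79 Ins2 UMIs in cluster 1 of replicate 2, and up to 42 among the stellate, endothelial and macrophage cells of replicate 1. Insulin cDNA had been removed from the libraries before sequencing.

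Of 12 beta cell markers, 8 could be compared, and 0 were at least 2-fold higher and 2 at least 2-fold lower in both libraries, against 0.0376% and 0.313% of all genes. The 2 were Ins2 and the glucose transporter gene Slc2a2, which had only 2 and 17 UMIs in cluster 9 against 22 and 96 in cluster 1. The median log2 ratio of the list was -0.723 and -0.999. Without the highest Scrublet scores it was -0.30 and -0.19 over 7 genes.

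Most markers of other cells were at low levels. None of 8 stellate, 7 endothelial, 10 acinar or 8 nerve and Schwann markers reached 20 UMIs in both libraries, and 6 of the stellate and 3 of the endothelial markers had 0 UMIs in cluster 9. Of 8 macrophage markers only the complement gene C1qa could be compared, with 132 and 164 CPM in cluster 9 against 113 and 119 CPM in cluster 1, or 0.25 and 0.47 on the log2 scale. Of 6 duct markers 3 could be compared, of which 1 was higher in both libraries, the epithelial adhesion gene Epcam with 0.08 and 0.17. Of 8 cycling markers 2 could be compared and both were higher. The replication clamp gene Pcna had 0.78 and 0.375 and the thymidylate synthase gene Tyms 0.002 and 0.19. In the summed thinned cells Tyms turned to -0.66 and -0.05, while Pcna had 0.90 and 0.40. Among all genes 26.9% were higher in both libraries, so counts over so few markers show no lean. The part of these markers in the other results was not tested. The delta cell hormone gene Sst went in opposite directions, with log2 ratios of 1.06 and -0.68. In replicate 1 a single cluster 9 cell held 325 of the 448 Sst UMIs.

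Ribosomal RNA-linked transcripts were lower in cluster 9 in both libraries. Gm42418 and AY036118 are annotated lincRNA genes on opposite strands at chr17:39846958-39848788 and chr17:39847113-39848035 (mm10), a place known to hold ribosomal RNA sequence, and the use of strand in the counting is not stated. The 2 genes overlap, so their reads cannot be told apart without strand. Gm42418 made up 1.88% to 8.17% of the UMIs of a cluster 9 cell in replicate 1 with a median of 3.23%, against 1.71% to 22.1% with a median of 4.80% in cluster 1. In replicate 2 the range was 2.26% to 11.4% with a median of 4.17% in cluster 9, against 2.26% to 14.4% with a median of 6.03% in cluster 1. The highest cluster 9 cell stayed below the highest cluster 1 cell in both libraries, and the ranges overlapped.

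In the sums the log2 ratios were -0.80 and -0.67 for Gm42418 and -1.02 and -0.70 for AY036118. Between cells of like depth they were -0.43 and -0.55 for Gm42418 and -0.66 and -0.65 for AY036118. Lars2, which encodes the mitochondrial leucyl-tRNA synthetase, had 1190 and 982 CPM in cluster 9 against 1800 and 1534 CPM in cluster 1, or -0.60 and -0.64. These 3 genes were among the 8 that were at least 1.5-fold lower in both libraries, with Ins2, Ins1, Iapp, Ppy and the phospholipid synthesis gene Cds2.

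Of the 13 genes of the mitochondrial genome, 8 could be compared and 7 were lower in cluster 9 in both libraries, while 26.8% of all genes were. None was past 2-fold, and scaling to total UMIs left 4 of 8 lower in both libraries. mt-Nd2, a complex I subunit, had log2 ratios of -0.36 and -0.34, and mt-Co1, a complex IV subunit, had -0.29 and -0.30. Between cells of like depth 2 of 7 were lower in both libraries and the list medians were 0.00 and -0.12, beside -0.24 and -0.29 over all cells.

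The genes on the high side were modest and thinly counted. Mrps33 encodes a protein of the small mitochondrial ribosomal subunit. It had 29 UMIs in cluster 9 against 72 in cluster 1 in replicate 1, and 70 against 92 in replicate 2, for log2 ratios of 0.80 and 0.81. In the authors' transcript table the same gene had 58 against 203 UMIs and 189 against 370 UMIs, with log2 ratios of 0.30 and 0.22, so its rank on the high side depends on the table. Gng10, a G protein gamma subunit, had 42 against 82 UMIs and 81 against 118 UMIs, or 1.14 and 0.66, with 1.18 and 0.75 in the transcript table. Klf4, a zinc finger transcription factor, had 31 against 77 UMIs and 91 against 137 UMIs, or 0.80 and 0.62. It is also a member of the list of immediate early genes described below.

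No single cell held more than 6 UMIs of any of these 3 genes in cluster 9. After thinning, Gng10 gave a UMI in 11.3% and 9.43% of cluster 9 cells against 5.15% and 6.99% of cluster 1 cells. Klf4 gave a UMI in 12.3% and 15.1% of cluster 9 cells against 5.53% and 7.53% of cluster 1 cells, and in 10.8% and 27.3% of stellate, endothelial and macrophage cells. The Klf4 share in cluster 9 was at the level of those cells in replicate 1 and below it in replicate 2.

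Transcripts for cytosolic ribosomal proteins took a larger part of each cell in cluster 9. The 30 genes of the list summed to a median of 2.98% of the UMIs of a cell against 2.45% in replicate 1, and 4.19% against 3.61% in replicate 2. In the scaled sums 19 of 30 were higher and 2 lower in both libraries, against 26.9% and 26.8% of all genes, and the list medians were only 0.08 and 0.14 on the log2 scale. None was past 2-fold. More of them were higher than lower under each other scaling run as well, with 25 higher and 1 lower under total UMIs, beside 3531 and 1129 of all 7984 genes. After thinning of the cells the count was 2 higher and 10 lower of 26, where the median of all genes had itself moved to -0.09 and -0.26.

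**Figure D4:**
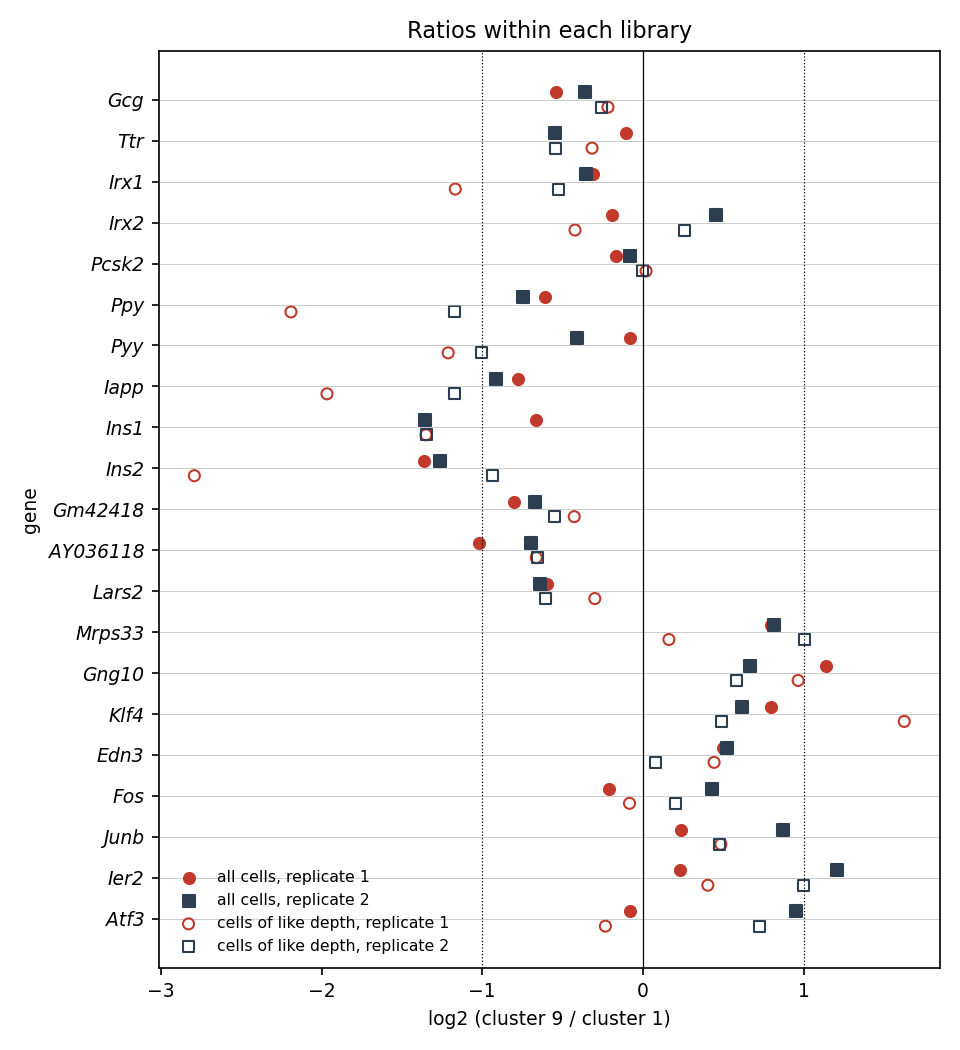
Log2 ratio of cluster 9 to cluster 1 for selected genes in replicate 1 (circles) and replicate 2 (squares), from all cells (filled) and from cells of both clusters within the middle part of cluster 9 depth (open). Gcg, Gm42418 and AY036118 stay below 0 in both sets of cells, Gng10 and Klf4 stay above 0, and Ier2 and Atf3 lie higher in replicate 2 than in replicate 1.

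Immediate early genes, which rise within minutes of a stimulus and also during tissue dissociation, took a larger part of the median cluster 9 cell than of the median cluster 1 cell, with a wide gap in replicate 2 and a small one in replicate 1. The 19 genes of the list made up a median of 1.32% of the UMIs of a cluster 9 cell in replicate 2, with a range of 0.229% to 2.79%, against 0.739% with a range of 0.0260% to 2.25% in cluster 1. In replicate 1 the medians were 0.529% in cluster 9 and 0.456% in cluster 1. The summed level of the list in replicate 1 ran the other way, with 6253 CPM in cluster 9 against 6508 CPM in cluster 1. The upper part of the cells was at 1.75% or more in cluster 9 of replicate 2 (75th percentile), against 1.01% in cluster 1.

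In the sums 16 of the 19 could be compared and none was past 2-fold in both libraries. Of the 16, 6 were higher and 0 lower in both libraries, beside 26.9% and 26.8% of all genes. When scaled to total UMIs 13 were higher and 0 lower, beside 3531 and 1129 of all 7984 genes. In the TMM-scaled sums the median log2 ratio of the 16 was -0.02 in replicate 1 and 0.60 in replicate 2. Ier2, an early response gene, had 458 UMIs in cluster 9 against 457 in cluster 1 in replicate 2, or 875 against 379 CPM and a log2 ratio of 1.21. In replicate 1 it had 88 against 322 UMIs and a ratio of 0.23. The AP-1 gene Junb had ratios of 0.24 and 0.87, and the stress factor gene Atf3 had -0.08 and 0.95. The AP-1 genes Fos and Jun had -0.21 and -0.17 in replicate 1 but 0.43 and 0.46 in replicate 2.

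In thinned cells the gap of Ier2 and Atf3 was again wide in replicate 2 and small in replicate 1. Klf4, also in this list, had a gap in both libraries. It gave a UMI in 12.3% of cluster 9 cells against 5.53% of cluster 1 cells in replicate 1, and 15.1% against 7.53% in replicate 2. Ier2 gave a UMI in 58.5% of cluster 9 cells of replicate 2 against 23.7% of cluster 1 cells, and in 19.8% against 15.7% in replicate 1. Atf3 gave a UMI in 52.8% against 26.3% in replicate 2 and 6.60% against 5.91% in replicate 1. In stellate, endothelial and macrophage cells the shares in replicate 2 were 52.3% for Ier2 and 43.2% for Atf3, so these genes were not particular to alpha cells. In the summed thinned cells Ier2 had log2 ratios of -0.04 and 1.21, so its direction in replicate 1 turned. Between cells of like depth the log2 ratios were 0.40 and 0.996 for Ier2, 0.48 and 0.475 for Junb, -0.23 and 0.72 for Atf3, and -0.08 and 0.20 for Fos. There 7 of 13 genes of the list were higher and 0 lower in both libraries, beside 699 and 794 of all 2780 genes compared. Junb differed there as much in replicate 1 as in replicate 2. Replicate 2 was also the library whose own transcript clusters separated most of cluster 9, and the part of these genes in that separation was not tested.

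**Figure D5:**
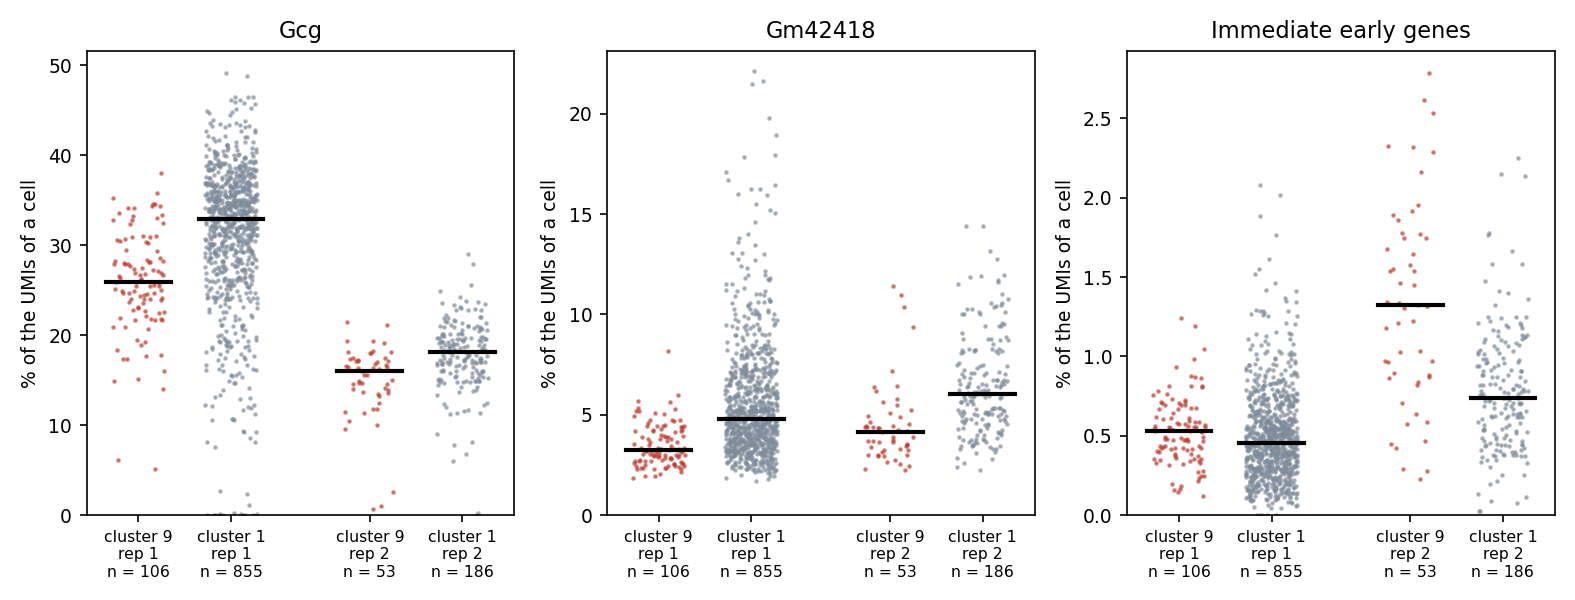
Share of the UMIs of each cell, in percent, that came from Gcg, from Gm42418 and from the 19 immediate early genes, in cluster 9 and cluster 1 of each library, with 1 point per cell and a bar at the median. Gcg and Gm42418 medians are lower in cluster 9 in both libraries, and the immediate early median is 1.32% against 0.739% in replicate 2 and 0.529% against 0.456% in replicate 1.

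In the TMM-scaled sums several lists of secretory, receptor, channel and transcription factor genes had more members lower than higher in both libraries. Among all genes 26.9% were higher and 26.8% lower. Other lists leaned the other way, with 7 higher and 2 lower of 15 cAMP signalling genes. The counts were 11 and 4 of 22 nuclear respiratory chain genes, and 6 and 0 of 10 interferon and MHC genes. Apart from the respiratory chain, these lists were counted under TMM only. For the respiratory chain, 17 were higher and 1 lower of 22 under total UMIs, beside 3531 and 1129 of all 7984 genes. Between cells of like depth 6 were higher and 6 lower of 21, and in thinned cells 8 and 6 of 21. Its lean was thus absent between cells of like depth. The direction of the alpha list depended on the scaling. Of 16 granule and prohormone processing genes compared, 3 were higher and 6 lower in both libraries, with the granins Chgb (-0.18 and -0.44) and Scg2 (-0.11 and -0.66) among the lower. Of 17 exocytosis genes, 2 were higher and 8 lower, and Snap25, a SNARE of granule fusion, had -0.45 and -0.50. Of 16 hormone and transmitter receptors, 3 were higher and 7 lower, and 1, the prolactin receptor gene Prlr, was at least 2-fold lower (0.313% of all genes) with 1 and 13 UMIs in cluster 9 against 26 and 81 in cluster 1. Of 15 ion channel genes 2 were higher and 7 lower, and of 23 islet transcription factor genes 5 were higher and 12 lower. The fatty acid receptor gene Ffar1 had 11 and 32 UMIs against 27 and 36, or 0.84 and 1.04. The gene for the MHC class I light chain, B2m, had 16 and 51 UMIs against 48 and 51, or 0.54 and 1.20.

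Isoform usage, the share of a transcript within its gene, was tested because the gene clusters were not formed from it, although it comes from the same reads. edgeR's diffSpliceDGE was run on transcript UMIs of 15 clusters in both libraries, with cluster and library in the model, and each transcript was set against the rest of its gene. Of 2796 genes with at least 2 transcripts that could be compared, 0 (0%) passed a false discovery rate of 0.05 between cluster 9 and cluster 1, and the smallest adjusted p was 1. At an unadjusted p under 0.05 there were 25 genes (0.894%). A calibrated test without any difference would give a share near 0.05, so the edgeR test was conservative here. limma's voom and diffSplice also called 0 genes, with 135 (4.83%) under an unadjusted 0.05 and a smallest adjusted p of 0.869. A p that misses the threshold does not show equal usage.

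The main transcripts of the alpha genes had near equal shares. Gcg-201 held 98.87% of Gcg UMIs in cluster 9 against 98.89% in cluster 1 in replicate 1, and 99.4% against 99.2% in replicate 2. Ttr-201 held 100% in every sum. Pcsk2-201 held 98.6% against 98.6%, and 98.7% against 99.1%. Gnas, the stimulatory G protein locus with many isoforms, was led by the processed transcript Gnas-221 with 23.1% against 21.3% in replicate 1 and 30.0% against 31.6% in replicate 2, and its adjusted p in edgeR was 1.

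The differences in share that were largest in the same direction in both libraries did not pass the threshold. Among genes with at least 50 UMIs in each cluster and library, the largest was in Atp6v0b, a subunit of the vacuolar proton pump at chr4:117884326-117887333 on the minus strand (mm10). Its transcript Atp6v0b-201 held 74 of 78 UMIs (94.9%) in cluster 9 against 278 of 338 (82.2%) in cluster 1 in replicate 1. In replicate 2 it held 206 of 258 (79.8%) against 369 of 516 (71.5%). For the gene as a whole the unadjusted p was 0.0606 and the adjusted p in edgeR was 1, and for this transcript the unadjusted p was 0.487.

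Mrps33-201 held 98.3% of Mrps33 UMIs in cluster 9 against 89.2% in cluster 1 in replicate 1, and 95.2% against 91.3% in replicate 2. The unadjusted p in edgeR was 0.0268 for the gene and 0.703 for this transcript, and both adjusted p were 1. Paip2-211, a retained-intron transcript of a translation regulator, held 3.08% against 11.98%, and 3.38% against 6.44%. Slc3a2-202, from the heavy chain of amino acid transporters, held 64.5% against 47.3% in replicate 1 but 56.5% against 56.1% in replicate 2. The retained-intron transcript Fosb-204 held 96.8% against 97.3% in replicate 1 and 42.9% against 63.1% in replicate 2. The other 7 of the 12 such genes were 1500011B03Rik, Cuta, Ift20, Top1, Atp2b1, Srp9 and Tecr, with mean differences from -9.62 percentage points in 1500011B03Rik to 7.73 in Cuta, all with an adjusted p of 1 in edgeR.

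The main classes of transcripts had close shares. Outside Gcg, Gm42418 and AY036118, retained-intron transcripts held 4.17% of UMIs in cluster 9 against 4.70% in cluster 1 in replicate 1, and 2.68% against 2.81% in replicate 2. Protein-coding transcripts held 89.8% against 88.8%, and 93.1% against 93.0%. In both of these classes the libraries differed from each other by more than the clusters did.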

How the data were processed

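The authors deposited raw UMI counts of genes and of annotated transcripts in each cell, with cell tables that give each kept cell its clusters and map positions, the latter a score without unit. Per the submitters' processing notes the build was mm10 and Seurat was used. The aligner, the counting tool, the use of strand and which subset the tables are were not given in the sources used here. Cells of cluster 9_alpha and the lists of genes were chosen with earlier results of these data known.

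Counts were summed per library and cluster, scaled by TMM in edgeR 4.0.16, and compared within a library as log2 ratios with a pseudocount of 0.5 UMI. Genes needed 20 UMIs over both clusters in each library. Named genes needed 50 CPM and 2-fold in both libraries, or belonged to the alpha list, or were the up to 4 largest of another list; other names were added after values were seen.

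Transcripts were joined to GENCODE M21 (69626 of 69994, with 99.9% of UMIs) and tested with diffSpliceDGE over 30 sums of 15 clusters, with library as a block because each library gives every cluster (14 residual degrees of freedom). Transcripts needed 10 UMIs and 5% of their gene. Simes p-values per gene were adjusted by Benjamini-Hochberg. On simulated sums the test recovered 68.5% of 200 changed genes and called 0.077% of the others. The changed genes were drawn from those with more UMIs, and their main transcript lost a large part of its share. All transcripts had 1 common dispersion there. The check thus does not cover small changes or thinly counted genes. Alternatives used limma 3.58.1, DESeq2 1.42.0 size factors, other filters, thinned cells and Scrublet (scanpy 1.11.5, doublet rate set to 0.06). Its own threshold called only 6 and 13 cells per library, so the top 6% of scores were left out instead, which with ties were 6.52% and 8.05% of cells. Some members of the gene lists are not reported here by name.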

Additional observations from a re-analysis of the deposited data

How the results depend on the processing

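The number of genes past 2-fold in both libraries, 28, moved with the filter and the depth. It was 1413 of 18267 genes with no filter on UMIs, 1 of 2074 with 100 UMIs in each library, 13 with a pseudocount of 3 UMIs, 11 of 1414 with cells thinned to 1000 UMIs, and 9 of 2780 between cells of like depth, an alternative chosen after seeing the data. When only 1 library had to pass, the count was 298 without replicate 1 and 560 without replicate 2. It was 24 to 28 under the other 5 alternatives. The split of the count moved too. More genes were higher than lower with no filter (1180 and 233) and with a pseudocount of 3 UMIs (11 and 2). More were lower than higher in thinned cells (0 higher and 11 lower) and between cells of like depth (1 higher and 8 lower). The isoform test called 0 genes under all 11 alternatives, without the replicate block included (21 genes at an unadjusted p under 0.05, against 25 with it), and without replicate 1 or 2 (0 to 0). The share of cluster 9 among alpha cells (mean 16.6%) and the ratio of median UMIs (1.36 to 1.62) kept within the spread of the libraries under the alternatives that used both libraries. Leaving out 1 of 2 libraries always stays within 1 SD of their mean, here and for the log2 ratios, so that setting tests nothing. Of 1470 log2 ratios of 147 named genes under alternatives, 376 moved by over 1 SD between libraries. The 1470 include the ratios without replicate 1 or 2, which could not move that far, so the share that moved is understated. Changes of sign were counted only for genes past 2-fold in both libraries, with 0 found. Other genes, such as Pcsk2, did change sign. Counting error limits the ratios of genes with few UMIs, such as Ins2 with 29 in cluster 9 of replicate 1.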

Other observations

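The authors' gene and transcript tables count some genes very differently in cluster 9. Lars2 had 324 and 514 UMIs in the gene table of replicates 1 and 2 and 0 and 1 in the transcript table. Ins2 had 29 and 118 UMIs in the gene table and 3 and 57 in the transcript table. AY036118 had 1189 and 2758 UMIs in the gene table and 32 and 154 in the transcript table, and Gnas had 1078 and 1982 in the gene table and 247 and 527 in the transcript table. Gcg (80564 and 95956, beside 80566 and 96314) and Ttr (13133 and 29375, beside 13143 and 29378) were nearly equal in both. Neither labels nor headers say why the tables differ.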
